A study of Mus musculus with 8 samples.

Results

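The genes described are those of the matrix metalloproteinases (MMP), the ADAM and ADAMTS proteases, the ADAMTS-like proteins and the inhibitors of these enzymes, the tissue inhibitors of metalloproteinases (TIMP) and Reck. They were picked by gene name, but this choice was made with earlier results of these data known. Their counts and medians are therefore not those of a set chosen blind to the data. Such a name is carried by 86 of the 35204 genes listed: 23 MMP, 34 ADAM, 19 ADAMTS, 5 ADAMTS-like and 5 inhibitor genes. Of these, 51 had a mean of at least 10 normalised counts over the 8 libraries and were tested (14, 14, 13, 5 and 5 by family). The 35 others stayed below that filter, and 16 of them were listed at 0 in every library.

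RNA from mouse liver, enriched for polyadenylated transcripts, was sequenced in 3 control and 5 treated libraries. All mice were of the C57BL/6J strain with a wild-type genotype, and the controls received no treatment. The treated mice, called TAZ-CCl4 here, were given TAZ S89A under the EF1a promoter by hydrodynamic tail vein injection (HTVI), which brings plasmid DNA mainly into hepatocytes, and also received carbon tetrachloride (CCl4) 30 times, at 3 doses a week for 10 weeks. TAZ is a coactivator of TEAD transcription factors, its S89A form escapes a phosphorylation that keeps it out of the nucleus, and CCl4 is a hepatotoxin used to produce liver fibrosis. No group analysed here received TAZ S89A or CCl4 alone, so their contributions cannot be told apart, and the labels give each group a project ID of its own, so project and treatment cannot be told apart either. Age and sex are not given in the labels, and they do not state whether the libraries stem from different mice; p-values therefore reflect the spread among libraries, which may be technical.

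MMPs cut collagens and other matrix proteins and are made as inactive proenzymes. TIMPs block their active site, and the secreted ADAMTS enzymes process proteoglycans, procollagens and other matrix proteins, whereas most membrane-bound ADAMs release the outer part of cell surface proteins such as growth factor precursors. In fibrotic liver, stellate cells, macrophages, neutrophils and bile duct cells are all known sources of such genes, and fibrosis is known for high TIMP levels beside high levels of several proteases.

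Most of the tested genes were higher in the TAZ-CCl4 livers. At the deposited scaling 36 of 51 rose and 3 fell (limma, adjusted p under 0.05), and 12 were not called. Of the 36, 13 had a control mean under 10 and so passed the filter only through the TAZ-CCl4 group, as did 964 of the 4592 genes called higher among all those tested, and the count is given as a description. Over all 14171 genes tested, 32.4% were called higher, 29.8% lower and 62.3% in either direction. The median log2 fold change was 2.53 over the 51 genes and 0.03 over all genes tested. In 36 of the 51 every TAZ-CCl4 library stood above every control, as in 30.7% of all genes tested, and in 2 every TAZ-CCl4 library stood below, as in 29.4%. Among the families, 11 MMP, 7 ADAM, 12 ADAMTS, 3 ADAMTS-like and 3 inhibitor genes rose, with family medians of 2.91, 0.98, 2.78, 2.38 and 3.43 on the log2 scale. The 13 genes with a control mean under 10 were Mmp3, Mmp7, Mmp8, Mmp13, Mmp24, Mmp28, Adam8, Adam22, Adamts4, Adamts12, Adamts16, Adamtsl3 and Timp1. The family counts and medians are therefore descriptions as well.

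The scaling of the libraries bears on every direction given here, because the control libraries summed to 29.8 to 35.1 M normalised counts and the TAZ-CCl4 libraries to 12.4 to 14.2 M. Bringing all libraries to equal totals moved the median of all genes to 1.26, leaving out the major urinary protein and mitochondrial genes to 0.85, and equal upper quartiles to 0.22 on the log2 scale. At equal totals 45 of the 51 were called higher and 0 lower, against 76.3% and 6.37% of all genes tested, and their median was 3.64. Those 45 were 13 MMP, 12 ADAM, 12 ADAMTS, 5 ADAMTS-like and 3 inhibitor genes. The 3 genes that fell at the deposited scaling were therefore not called lower at equal totals, and they are given with both values below. Fold changes are differences of log2(normalised count + 1), which understates the change of low genes.

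**Figure D1:**
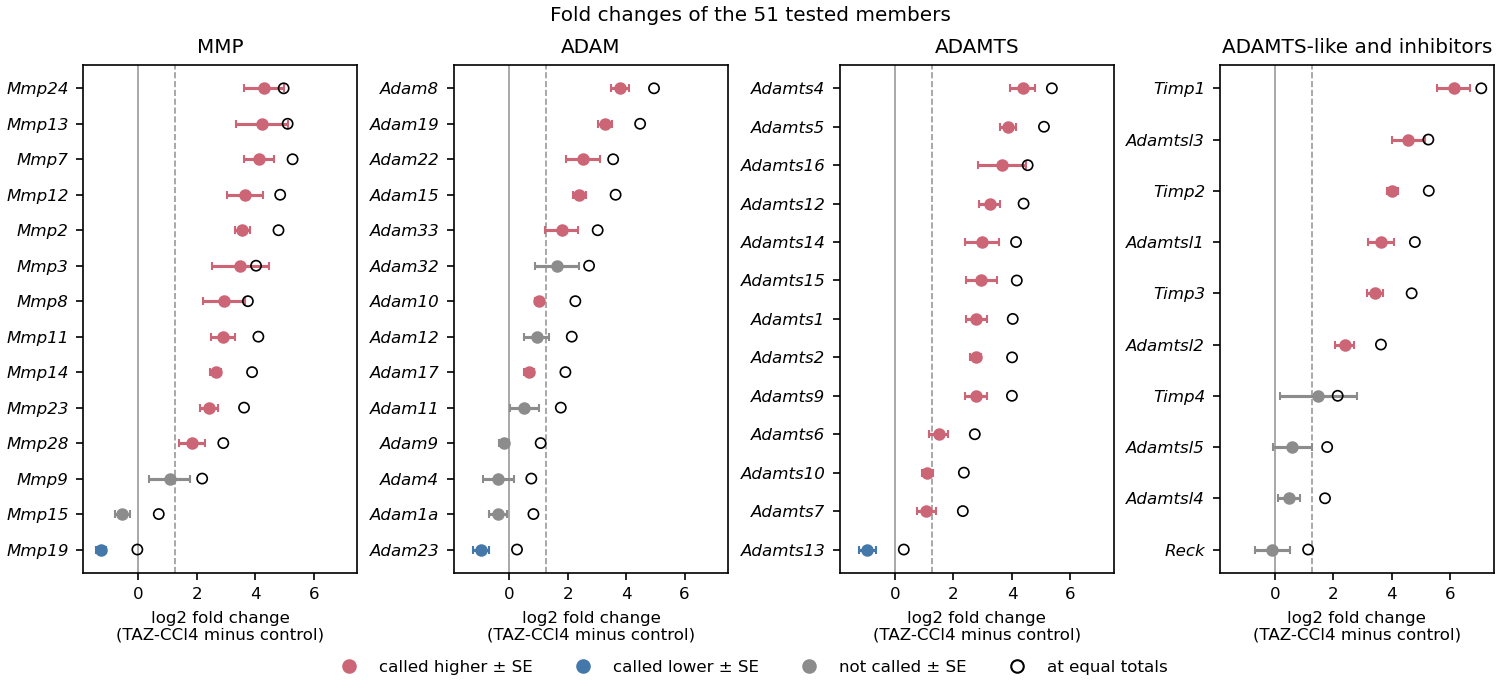
Log2 fold change (TAZ-CCl4 minus control, log2 of normalised count + 1) of each of the 51 tested genes, by family, with its SE as a bar; red points were called higher, blue points lower and grey points were not called. Open circles give the same difference at equal totals, the solid line marks 0 and the dashed line the median of all tested genes at equal totals, 1.26. Mmp19, Adam23 and Adamts13 stand to the left of 0 at the deposited scaling and at -0.03, 0.27 and 0.30 at equal totals; the point of Mmp3, listed at 0 in all controls, depends on the pseudocount.

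Of the inhibitors, Timp1, Timp2 and Timp3 rose, and Timp4 and Reck were not called. Timp1, which encodes a secreted inhibitor of most soluble MMPs (mm10 chromosome X, 20870166 to 20874735), stood at 5.89, 2.33 and 0 normalised counts across the controls, against 134, 188, 186, 336 and 184 in the treated livers. The lowest TAZ-CCl4 library lay far above the highest control, and the log2 fold change, 6.11 ± 0.56 (± SE throughout; limma, adjusted p = 8.00e-06), was the highest of the 51. It ranged with the controls used, from 5.36 without control replicate 3 to 6.75 without control replicate 1. Timp2 (chromosome 11, 118301069 to 118355740) encodes an inhibitor that also takes part, with the Mmp14 protein, in the activation of the Mmp2 proenzyme. It stood at 130.2, 186 and 151 in the controls and 1898, 2348, 3465, 2305 and 2807 in the TAZ-CCl4 libraries, a log2 fold change of 4.02 ± 0.20 (limma, adjusted p = 3.06e-07).

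Timp3 (chromosome 10, 86300372 to 86349506) encodes the matrix-bound member, which also inhibits ADAM17 and aggrecan-cleaving ADAMTS enzymes. Its values were 187, 399 and 258 in the controls and 4571, 2791, 2273, 2348 and 2996 in the TAZ-CCl4 libraries, a log2 fold change of 3.43 ± 0.27 (limma, adjusted p = 3.68e-06), and the groups did not overlap. Timp4 (chromosome 6, 115241892 to 115252205) was low, at 2.995, 0.958 and 0 in the controls and 14.4, 67.1, 0, 0.871 and 1.73 in the TAZ-CCl4 group, with TAZ-CCl4 replicate 2 far above the other libraries, and was not called (log2 fold change 1.49 ± 1.31; limma, adjusted p = 0.342). Reck, the gene of a membrane-anchored inhibitor of several MMPs, was at 24.97, 90.4 and 88.8 in the controls and 31.5, 143, 28.6, 86.1 and 45.95 in the TAZ-CCl4 libraries. The groups of Reck overlapped, and the difference of -0.09 ± 0.59 on the log2 scale was not called (limma, adjusted p = 0.908; 1.14 at equal totals, below the median of all genes there).

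**Figure D2:**
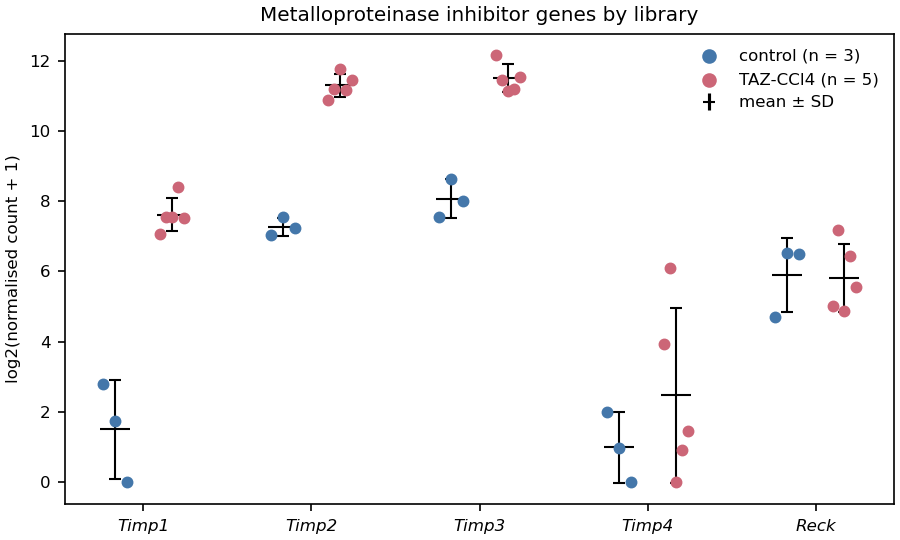
Log2(normalised count + 1) of the 5 inhibitor genes in each library, with the mean and SD of each group on that scale (3 control and 5 TAZ-CCl4 libraries). The groups stand apart for Timp1, Timp2 and Timp3 and overlap for Timp4 and Reck.

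Divided by the length of the longest coding transcript of each gene, the 4 TIMP genes summed to 81.8 to 138 normalised counts per kb in the controls and 1449 to 1634 in the TAZ-CCl4 libraries. The MMP genes summed to 836 to 869 per kb in the controls and 1429 to 2306 in the TAZ-CCl4 libraries, and the ADAMTS genes to 173 to 252 and 611 to 826. The ADAM genes summed to 749 to 791 and 992 to 1618 per kb. The highest ADAM sums, 1618 and 1553 in TAZ-CCl4 replicates 2 and 4, were led by Adam11, with 42.9% and 34.9% of them. Adam11 was not called at the deposited scaling. The ranges of the 2 groups did not overlap for any of these 4 sums at the deposited scaling.

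Ratios within a library do not depend on its scaling and were compared as a description, with no test. The ratio of Mmp14 to Timp2 normalised counts was 2.58, 2.13 and 3.32 in the controls and 1.43, 1.36, 0.620, 1.16 and 0.749 in the TAZ-CCl4 libraries, so every TAZ-CCl4 library lay below every control although both genes rose. The ratio of Adam17, the gene of the sheddase of tumour necrosis factor, to Timp3 was 1.79, 0.896 and 1.26 in the controls and 0.0892, 0.170, 0.276, 0.263 and 0.207 in the TAZ-CCl4 libraries, again without overlap. The ratio of Mmp14 to Reck lay the other way, at 13.5, 4.40 and 5.63 in the controls and 86.5, 22.3, 75.1, 30.99 and 45.8 in the TAZ-CCl4 libraries. The ratios of Mmp2 to Timp2 and of Adamts5 to Timp3 overlapped between the groups, at 0.210 to 0.351 and 0.124 to 0.313 for the first and 0.0996 to 0.125 and 0.0929 to 0.300 for the second. The ratios of Mmp9 and Adam10 to Timp1 could not be formed in control replicate 3, where Timp1 was listed at 0.

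**Figure D3:**
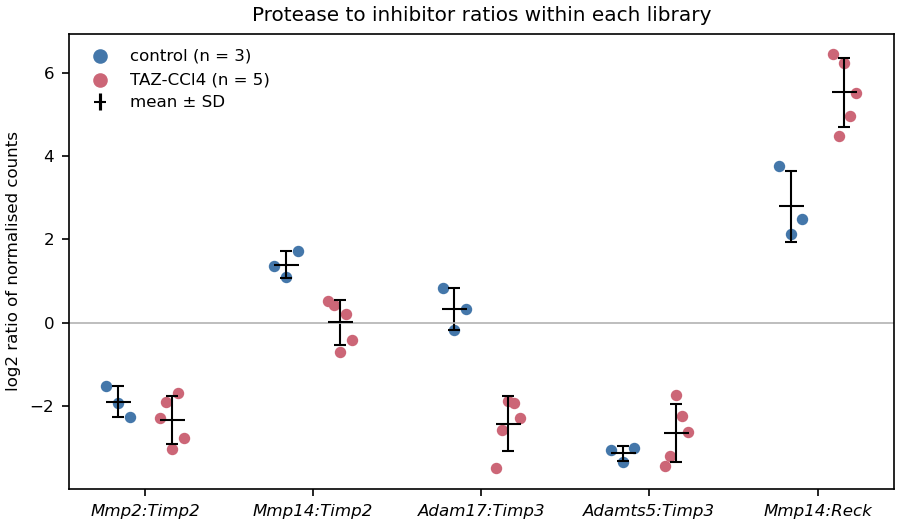
Log2 ratio of the normalised counts of a protease gene to those of an inhibitor gene within each library, with the mean and SD of each group (3 control and 5 TAZ-CCl4 libraries). Mmp14:Timp2 and Adam17:Timp3 are lower in every TAZ-CCl4 library than in every control, Mmp14:Reck is higher, and the other 2 ratios overlap.

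Of the 14 tested MMP genes, 11 rose, Mmp19 fell, and Mmp9 and Mmp15 were not called. Over all genes tested 32.4% rose and 29.8% fell. At equal totals 13 of the 14 were called higher, as were 76.3% of all genes tested. Of those that rose, Mmp3, Mmp7, Mmp8, Mmp13, Mmp24 and Mmp28 passed the filter only through the TAZ-CCl4 group. Mmp13 (chromosome 9, 7272514 to 7283331), the gene of the main interstitial collagenase of rodents, was at 0, 2.41 and 5.996 normalised counts in the controls and 83.4, 10.3, 99.1, 28.8 and 161 in the TAZ-CCl4 libraries. The groups did not overlap, but the TAZ-CCl4 values covered a wide range, and the log2 fold change of 4.23 ± 0.90 (limma, adjusted p = 0.00209) was 3.47 without control replicate 1, where the gene was listed at 0, and 4.87 without control replicate 3. Mmp8, the gene of the neutrophil collagenase, rose by 2.93 on the log2 scale (limma, adjusted p = 0.00515), to between 6.55 and 35.3 normalised counts.

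The gelatinase genes, whose products cut denatured collagen and type IV collagen, differed in their calls. Mmp2 stood at 45.7, 49.3 and 31.7 in the controls and 392, 630.3, 429, 721 and 412 in the TAZ-CCl4 libraries and rose by 3.56 ± 0.25 on the log2 scale (limma, adjusted p = 1.96e-06). Mmp9 was at 3.75, 4.79 and 42.9 in the controls and 16.2, 14.4, 25.1, 38.2 and 19.5 in the TAZ-CCl4 libraries, and control replicate 3 stood above all TAZ-CCl4 libraries. Mmp9 was not called (log2 fold change 1.07 ± 0.70; limma, adjusted p = 0.207), and without control replicate 3 it was called higher, at 2.09 (limma, adjusted p = 0.00673). With all libraries at equal totals Mmp9 was called higher too, at 2.18 (limma, adjusted p = 0.0126).

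Mmp7, the gene of matrilysin, an epithelial protease, was at 9.46, 4.84 and 10.8 in the controls and 181, 389, 60.4, 142 and 145 in the TAZ-CCl4 libraries, with replicate 2 highest (log2 fold change 4.12 ± 0.51; limma, adjusted p = 6.71e-05). Mmp12, the gene of macrophage metalloelastase, was at 25.6, 21.9 and 8.40 in the controls and 101, 149, 149.8, 808 and 304 in the TAZ-CCl4 libraries (3.65 ± 0.63; limma, adjusted p = 0.000544). Replicate 4 held much more Mmp12 than the other 4 TAZ-CCl4 libraries, which were still all above the controls. Mmp3, the gene of stromelysin-1, was listed at 0 in all 3 controls, reached 2.72, 94.3, 3.92, 9.49 and 8.75 normalised counts in the TAZ-CCl4 libraries, and was called higher (limma, adjusted p = 0.0107). Most of the Mmp3 signal came from replicate 2. The call held without that library (limma, adjusted p = 0.0106) but was lost with a pseudocount of 10 (limma, adjusted p = 0.102). It was also lost after quantile normalisation (limma, adjusted p = 0.0644). No fold is given against a group at 0. Mmp11, the gene of stromelysin-3, rose by 2.90 (limma, adjusted p = 0.000191); its coordinates overlap those of Chchd10, which fell.

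Among the membrane-type MMPs, which sit on the cell surface, Mmp14 (chromosome 14, 54431612 to 54445364) was at 336, 398 and 500.2 in the controls and 2722, 3183, 2149, 2668 and 2103 in the TAZ-CCl4 libraries, a log2 fold change of 2.64 ± 0.18 (limma, adjusted p = 1.50e-06). Mmp24 rose by 4.29 (limma, adjusted p = 0.00034) from at most 1.21 to between 7.86 and 68.3 normalised counts. Mmp15 was at 957, 964 and 1100.3 in the controls and 460.1, 1099.9, 516, 891 and 647 in the TAZ-CCl4 group, with 2 TAZ-CCl4 libraries near the control level and 3 below it. It was not called at the deposited scaling, at -0.55 ± 0.26 (limma, adjusted p = 0.0907). At that scaling it was called lower without TAZ-CCl4 replicate 2, at -0.72 (limma, adjusted p = 0.0146). At equal totals Mmp15 was called higher, at 0.70 (limma, adjusted p = 0.0348), below the median of all genes there. Mmp23 and Mmp28, the gene of epilysin, rose by 2.42 and 1.83 (limma, adjusted p = 6.34e-05 and 0.00535).

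Mmp19 (chromosome 10, 128790910 to 128800824), which encodes an MMP of many resting tissues, had the highest level per length of all MMP, ADAM, ADAMTS and ADAMTS-like genes in the controls, at 469 normalised counts per kb of transcript. It was at 1757, 1646 and 1379 normalised counts in the controls and 470.0, 738, 774, 658 and 657 in the TAZ-CCl4 libraries and fell by 1.29 on the log2 scale at the deposited scaling (SE 0.17; limma, adjusted p = 0.000106), without overlap. At equal totals the difference was -0.03 and was not called, against a median of 1.26 for all genes. In the TAZ-CCl4 libraries Mmp14 held the first rank per length among the same genes, at 792 per kb against 127 in the controls, and Mmp19 ranked number 7.

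**Figure D4:**
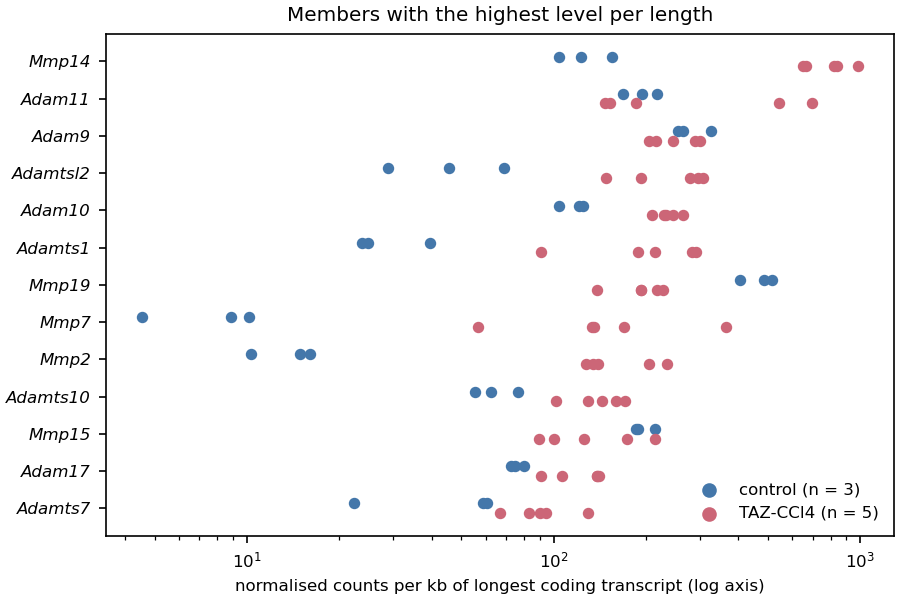
Normalised counts per kb of the longest coding transcript (log axis) in each library, for the MMP, ADAM, ADAMTS and ADAMTS-like genes that ranked among the first 10 in either group by mean level per length, ordered by the TAZ-CCl4 mean. Mmp19 leads in the 3 control libraries and Mmp14 in the 5 TAZ-CCl4 libraries.

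Mmp13, Mmp12, Mmp3, Mmp8 and Mmp7 lie within 1 cluster of 10 MMP genes on chromosome 9 that spans 427.1 kb. The 5 that passed the filter rose, but Mmp13, Mmp3, Mmp8 and Mmp7 had control means under 10 and passed only through the TAZ-CCl4 group, so this count supports nothing about the cluster. The other 5 stayed below it: Mmp1a and Mmp1b were listed at 0 in every library, Mmp10 and Mmp20 were listed at 0 in the controls and reached at most 4.15 and 2.19 normalised counts, and Mmp27 overlapped between the groups, at 2.64 to 12.9 and 3.45 to 16.5. The bases before the transcription start of these genes were read from RefSeq (GRCm38.p6) and searched on both strands for TGANTCA, where N is any base. This is a loose form of the letters bound by AP-1, a transcription factor long known to act at MMP promoters. Of the 10 genes, 8 held a match within 110 bases before a start: 4 of those called higher, and 4 that were too low to test, Mmp1a and Mmp1b among them. The match of Mmp20, also too low to test, has A at N, and those of the other genes have C or G. The GENCODE annotation types Mmp1a as a polymorphic pseudogene. The sequences are shown for 4 genes that rose and hold a match, for Mmp1a, which holds a match and was listed at 0, and for Mmp8, which rose and holds none there. Each is given 5′ to 3′ along the plus strand, which is the gene's own strand, ends at the base before the start, and has the match in capitals. RefSeq gives Mmp12 and Mmp7 a second start each, with no match in its window, and the start with the match is shown.
Mmp13, chr9:7272404-7272513: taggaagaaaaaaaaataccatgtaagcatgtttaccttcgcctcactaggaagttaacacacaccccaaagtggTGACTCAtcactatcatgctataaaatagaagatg
Mmp12, chr9:7347264-7347373: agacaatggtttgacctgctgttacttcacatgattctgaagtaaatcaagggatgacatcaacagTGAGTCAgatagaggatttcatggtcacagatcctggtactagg
Mmp3, chr9:7445712-7445821: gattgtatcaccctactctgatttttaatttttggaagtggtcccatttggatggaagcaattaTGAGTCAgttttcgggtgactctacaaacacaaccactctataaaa
Mmp7, chr9:7691980-7692089: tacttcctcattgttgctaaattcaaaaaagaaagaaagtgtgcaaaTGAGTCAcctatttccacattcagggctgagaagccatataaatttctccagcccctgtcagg
Mmp1a, chr9:7464031-7464140: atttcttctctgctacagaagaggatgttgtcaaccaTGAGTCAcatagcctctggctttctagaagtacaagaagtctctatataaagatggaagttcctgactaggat
Mmp8, chr9:7558319-7558428: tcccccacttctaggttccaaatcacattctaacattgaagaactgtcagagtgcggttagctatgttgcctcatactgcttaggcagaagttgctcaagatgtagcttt
The first base of the match stood at -35 in Mmp13, -44 in Mmp12, -46 in Mmp3, -63 in Mmp7 and -73 in Mmp1a, counted from the start. A match is a run of letters and not a measured binding site, and among these 6 genes it was present in 4 that rose and in 1 listed at 0, and absent from 1 that rose.

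**Figure D5:**
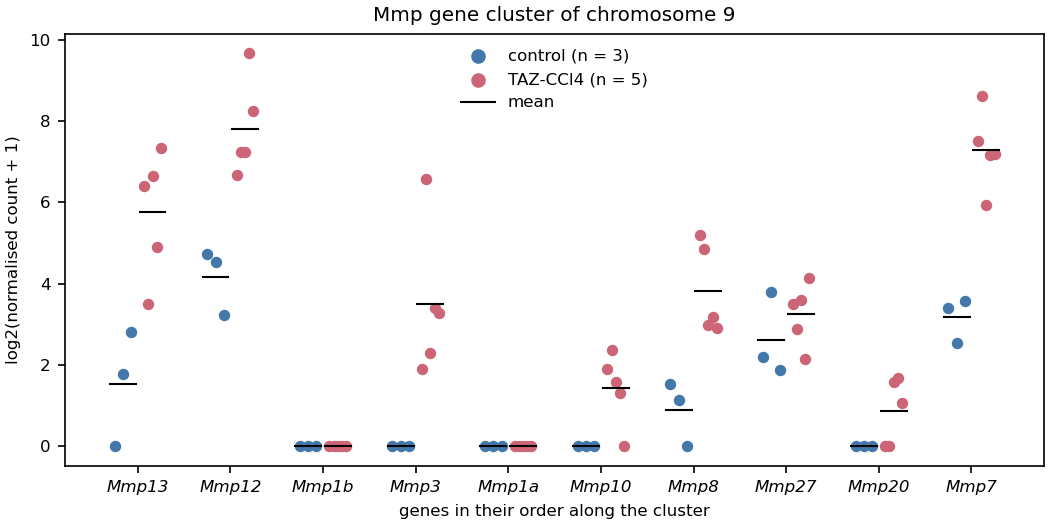
Log2(normalised count + 1) of the 10 MMP genes of the chromosome 9 cluster in their order along it, in each library (3 control and 5 TAZ-CCl4 libraries), with the mean of each group as a line. Mmp13, Mmp12, Mmp3, Mmp8 and Mmp7 stand apart between the groups, Mmp27 overlaps, and Mmp1a and Mmp1b are at 0 in all libraries.

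Promoter windows of 250 bases before to 50 after the start were found for 55 of the 86 genes, 60 windows in all. TGANTCA, the loose form of the AP-1 letters, was in 13 of the 60 (21.7%) and in 7.81% of 32851 windows of all genes. Outside the chromosome 9 cluster it was in 5 of 45 genes. GGAATG, the letters bound by TEAD factors, was in 5 of the 60 windows (8.33%) and in 14.7% of all windows. These 5 were the windows of Adam1a, Adam19, Adamts13, Reck and Timp1, of which Adam19 and Timp1 rose, Adamts13 fell at the deposited scaling, and Adam1a and Reck were not called. TATAAA was in 16 of the 60 windows (26.7%) and in 13.6% of all windows. Of the 31 windows of genes called higher, 5 held TGANTCA, 2 the TEAD letters and 7 the TATAAA letters. No window was at hand for 31 genes, Mmp2, Mmp9, Mmp19, Adamts4 and Adamts5 among them.

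Of the 14 tested ADAM genes, 7 rose, Adam23 fell and 6 were not called. Over all genes tested 32.4% rose and 29.8% fell. At equal totals 12 of the 14 were called higher, as were 76.3% of all genes tested. Of those that rose, Adam8 and Adam22 passed the filter only through the TAZ-CCl4 group. Adam8, the gene of an ADAM of leukocytes, was at 8.71, 9.09 and 5.55 normalised counts in the controls and 97.1, 135, 91.3, 171 and 117 in the TAZ-CCl4 libraries, a log2 fold change of 3.80 ± 0.30 (limma, adjusted p = 3.53e-06). Adam19, which encodes a protease that cuts neuregulin, was at 12.9, 24.7 and 23.3 and 203, 181, 212, 176 and 221 (3.27 ± 0.25; limma, adjusted p = 2.84e-06). The 5 TAZ-CCl4 libraries lay close together for Adam19. Adam15 was at 48.5, 83.2 and 66.6 in the controls and 269, 341, 352, 478 and 322 in the TAZ-CCl4 libraries (2.40 ± 0.23; limma, adjusted p = 1.17e-05), and the groups stood apart.

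Adam33, an ADAM of mesenchymal cells, was at 43.9, 38.7 and 64.6 in the controls and 151, 437, 65.8, 318 and 98.9 in the TAZ-CCl4 libraries. The lowest TAZ-CCl4 library exceeded the highest control by little, and the call (1.80 ± 0.56; limma, adjusted p = 0.0167) was lost without control replicate 1 (1.74; adjusted p = 0.0542) or control replicate 2 (1.65; adjusted p = 0.0616). Adam10 and Adam17, the genes of the main sheddases of Notch receptors and of tumour necrosis factor, changed less. Adam10 was at 557, 571 and 479 and 1067, 960.0, 1051, 1213 and 1126 (1.02 ± 0.12; limma, adjusted p = 5.45e-05) and Adam17 at 338 ± 17.5 and 549 ± 101 (SD, n = 3 and 5; 0.68 ± 0.17; limma, adjusted p = 0.00579). Their fold changes were above the median of all genes at the deposited scaling and, at 2.26 and 1.92, at equal totals. Adam17 shares coordinates with Iah1, which fell.

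Adam9, the gene of a widely expressed sheddase, had the second level per length among the MMP, ADAM, ADAMTS and ADAMTS-like genes in the controls and the third in the TAZ-CCl4 libraries, at 282 and 251 normalised counts per kb. It was not called (-0.17 ± 0.16; limma, adjusted p = 0.372), but at equal totals it was called higher at 1.08, still under the median of all genes. Adam12 (0.94), Adam32 (1.65), Adam1a (-0.39) and Adam4 (-0.38) were not called either. At equal totals Adam12 (2.14), Adam32 (2.73) and Adam1a (0.83) were called higher (limma, adjusted p = 0.000599, 0.00537 and 0.0311). After quantile normalisation Adam1a (-1.33) and Adam4 (-1.58) were called lower (limma, adjusted p = 0.00562 and 0.0281). Adam12 passed without TAZ-CCl4 replicate 2 (1.20; limma, adjusted p = 0.0160), and Adam32 without TAZ-CCl4 replicate 1 (1.98; adjusted p = 0.0398) or replicate 2 (1.99; adjusted p = 0.0352).

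Adam11, Adam22 and Adam23 encode ADAMs that lack a working active site and are known for roles at synapses. Adam22 rose by 2.53 (limma, adjusted p = 0.00343), to between 13.4 and 47.3 normalised counts. Adam23 was at 188, 154 and 177 in the controls and 108, 95.7, 101, 48.7 and 100.3 in the TAZ-CCl4 libraries and fell by 0.97 on the log2 scale (SE 0.27; limma, adjusted p = 0.0103), without overlap, and stood at 0.27 at equal totals. Adam11 was at 988, 859 and 1111 in the controls and 948, 3539, 781, 2764 and 751 in the TAZ-CCl4 libraries. TAZ-CCl4 replicates 2 and 4 held far more Adam11 than every other library, while the other 3 lay within or below the control range, and the gene was not called (0.52 ± 0.50; limma, adjusted p = 0.39). At equal totals Adam11 was called higher, at 1.77 (limma, adjusted p = 0.00693). Over the 51 tested genes, replicates 2 and 4 were the 2 highest TAZ-CCl4 libraries in 14 (27.5%), against 12.7% of all genes tested. Of all pairs of TAZ-CCl4 libraries, this one had the largest share of the 51 genes. The other pairs ranged from 3.92% to 13.7% of the 51 genes and from 4.95% to 17.6% of all genes tested. The genes are not independent of each other, and the share is a description with no test.

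Of the 13 tested ADAMTS genes, 12 rose and Adamts13 fell. Over all genes tested 32.4% rose and 29.8% fell. At equal totals 12 of the 13 were called higher, as were 76.3% of all genes tested. Adamts4, Adamts12 and Adamts16 passed the filter only through the TAZ-CCl4 group. All 5 tested genes of the proteoglycan-cutting enzymes, which process versican and aggrecan, rose, with this limit for Adamts4. Adamts4 was at 2.01, 1.28 and 3.83 normalised counts in the controls and 76.2, 59.4, 97.3, 35.4 and 75.6 in the TAZ-CCl4 libraries, a log2 fold change of 4.37 ± 0.42 (limma, adjusted p = 1.22e-05). Adamts5 was at 22.6, 39.8 and 32.3 and 425, 307, 682, 497 and 487 (3.87 ± 0.27; limma, adjusted p = 1.85e-06). The groups were far apart for both genes. Adamts15, Adamts1 and Adamts9 rose by 2.95, 2.78 and 2.76 (limma, adjusted p = 0.000629, 7.41e-05 and 0.000142).

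Adamts2 and Adamts14 encode enzymes that remove the amino-terminal propeptide of fibrillar procollagens, and both rose. Adamts14 was at 3.75, 21.6 and 41.7 in the controls and 160.3, 97.96, 110.5, 125 and 169 in the TAZ-CCl4 libraries (2.98 ± 0.58; limma, adjusted p = 0.00131). The controls of Adamts14 spread widely, and its fold change was 2.07 without control replicate 1 and 3.66 without control replicate 3. Adamts2 rose from 70.9 ± 15.8 (SD, n = 3) to 483 ± 64.7 (SD, n = 5), by 2.77 ± 0.19 on the log2 scale (limma, adjusted p = 1.69e-06).

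Adamts12, whose product cuts cartilage oligomeric matrix protein, was at 8.55, 6.51 and 10.9 in the controls and 76.4, 51.7, 128, 79.3 and 134 in the TAZ-CCl4 libraries (3.24 ± 0.37; limma, adjusted p = 3.47e-05). Adamts16, Adamts6, Adamts10 and Adamts7 rose by 3.67, 1.49, 1.11 and 1.07 (limma, adjusted p = 0.00276, 0.0023, 0.000518 and 0.0154). Adamts16 was listed at 0 in control replicate 1, and its fold change was 2.91 without that library and 4.30 without control replicate 2. Adamts7 was not called without control replicate 1 (0.60; limma, adjusted p = 0.0548), which held less of it than the other controls.

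Adamts13 (chromosome 2, 26973416 to 27009628) encodes the protease that cuts von Willebrand factor and is known to be made in the liver by stellate cells. It was at 181, 204 and 174 in the controls and 66.7, 179.8, 96.4, 83.5 and 84.7 in the TAZ-CCl4 libraries, where replicate 2 lay within the control range and the other 4 below it. Adamts13 fell by 0.94 on the log2 scale (SE 0.29; limma, adjusted p = 0.0173) and stood at 0.30 at equal totals. The call was lost without control replicate 2 (-0.88; limma, adjusted p = 0.0641).

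The ADAMTS-like proteins share the matrix-binding domains of ADAMTS enzymes but have no protease domain. Adamtsl2 (chromosome 2, 27079379 to 27108981), whose product binds fibrillin microfibrils, was at 164, 104 and 249.6 in the controls and 1005, 1105, 537, 1068 and 694 in the TAZ-CCl4 libraries (2.38 ± 0.31; limma, adjusted p = 8.96e-05). It lies close to Adamts13 on the same strand, and the neighbours differed in the direction of their calls at the deposited scaling. Adamtsl1 was at 4.54, 21.2 and 11.9 and 182, 82.7, 179, 130.1 and 172 (3.63 ± 0.44; limma, adjusted p = 5.88e-05), and Adamtsl3 rose by 4.56 (limma, adjusted p = 6.18e-05) from at most 1.43 normalised counts. Adamtsl4 and Adamtsl5 were not called (0.48 and 0.60; limma, adjusted p = 0.299 and 0.453). Both were called higher at equal totals, at 1.71 and 1.79 (limma, adjusted p = 0.00176 and 0.0249).

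Among the 35 genes below the filter, 19 had a value above 0 in some library, and the highest single value was 21.8 normalised counts, of Mmp25 in TAZ-CCl4 replicate 5. Adam5, Mmp17, Mmp25 and Mmp27 each passed 10 in at least 1 library, and all 4 overlapped between the groups. Of the 19, Adamts8 was higher in every TAZ-CCl4 library than in every control, at most 8.77, and Adam2 was lower, at most 4.82. Of the 34 ADAM genes, 20 stayed below the filter; many of these, such as Adam2, Adam3 and Adam18, are known as genes of the testis.

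Other genes of the pathway were described as whole lists. Their counts are to be read against the shares over all genes tested. These were 32.4% higher and 29.8% lower at the deposited scaling, and 76.3% and 6.37% at equal totals. Plaur, A2m, Tnf and Vcan had control means under 10 and passed the filter only through the TAZ-CCl4 group. Of 10 genes of proenzyme activation, 4 rose and 6 fell, with a median of -0.85 on the log2 scale against 0.03 for all genes, and at equal totals 5 were higher and 1 lower. Plaur, the receptor of urokinase, was at 5.89, 8.45 and 8.41 in the controls and 963, 286, 364, 396 and 401 in the TAZ-CCl4 libraries (5.69 ± 0.36; limma, adjusted p = 1.16e-06). Plau, the gene of urokinase itself, which turns plasminogen into plasmin, was at 5.66, 12.1 and 17.98 and 420.3, 154, 453, 559 and 562 (5.05 ± 0.46; limma, adjusted p = 8.38e-06). Both stood far above the controls, whereas Plg, the gene of plasminogen, and Furin, the gene of a convertase that activates membrane-type MMPs and ADAMs, fell by 1.46 and 1.03 at the deposited scaling and stood at -0.21 and 0.23 at equal totals. The 1 gene called lower at equal totals was Klkb1. It stood at -3.58 at the deposited scaling and -2.33 at equal totals (limma, adjusted p = 1.29e-05 and 9.00e-05).

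Of 10 genes of other inhibitors and clearance, 6 rose, 3 fell and 1 was not called, with a median of 0.71. At equal totals 7 were higher and 2 lower. The shares over all genes tested were 32.4% and 29.8%, and at equal totals 76.3% and 6.37%. A2m, the gene of a broad protease trap, was at 0, 3.62 and 4.79 in the controls and 291, 83.8, 149, 283 and 103 in the TAZ-CCl4 libraries (5.75 ± 0.63; limma, adjusted p = 2.77e-05). Thbs1, whose product thrombospondin-1 binds MMPs, was at 23.5, 25.4 and 26.4 and 1016, 304, 290.1, 312 and 518 (4.04 ± 0.38; limma, adjusted p = 1.07e-05). Both exceeded the controls in all 5 libraries. Pzp, the related protease trap of mouse plasma, and Lrp1, the receptor that clears many protease complexes, fell by 1.90 and 0.99 on the log2 scale at the deposited scaling and stood at -0.64 and 0.26 at equal totals. The 2 called lower at equal totals were Pzp and Tfpi2. Tfpi2 stood at -2.45 at the deposited scaling and -1.20 at equal totals (limma, adjusted p = 0.00012 and 0.00529).

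Of 10 tested genes of partners that guide membrane proteases, 8 rose, 1 fell and 1 was not called (median 1.31). At equal totals 9 were higher and 0 lower. Among all genes tested 32.4% rose and 29.8% fell, and at equal totals 76.3% and 6.37%. Sh3pxd2b, an adaptor of invadopodia, was at 16.8, 19.5 and 15.8 in the controls and 806, 512, 549, 595 and 542 in the TAZ-CCl4 libraries (5.02 ± 0.19; limma, adjusted p = 1.15e-07). Rhbdf1, the gene of an inactive rhomboid that escorts the ADAM17 protein, was at 129, 119.6 and 218 and 991, 953, 743, 931 and 684 (2.50 ± 0.22; limma, adjusted p = 5.87e-06). Its relative Rhbdf2 rose by 1.82, and Tspan33, a tetraspanin partner of ADAM10, fell by 1.98 (limma, adjusted p = 6.97e-06 and 0.000781; -0.74 at equal totals for Tspan33). Of 3 tested genes of other metalloproteases, Ece1, the gene of endothelin-converting enzyme, fell by 1.08 (limma, adjusted p = 0.00418; 0.18 at equal totals), and Bmp1 and Adamdec1 were not called.

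Of 15 tested genes whose products are shed by ADAMs, 9 rose and 6 were not called, with a median of 1.17. At equal totals 14 were higher and 0 lower. Over all genes tested the shares were 32.4% higher and 29.8% lower, and at equal totals 76.3% and 6.37%. Hbegf, a growth factor precursor cut by ADAM17, was at 20.8, 14.5 and 16.8 in the controls and 281, 147, 201, 300.3 and 276 in the TAZ-CCl4 libraries (3.69 ± 0.28; limma, adjusted p = 2.67e-06). Axl, a receptor tyrosine kinase, rose by 3.40 and Tnf by 3.66 (limma, adjusted p = 5.58e-06 and 0.000953), whereas Met and Mertk were not called, at -0.06 and 0.08. Of 12 tested genes of matrix substrates, 11 rose, with a median of 3.30, and Dcn was not called (0.19). All 12 were called higher at equal totals, where 76.3% of all genes tested were. Nid1, the gene of the basement membrane linker nidogen, was at 105, 238 and 153 and 5686, 3114, 4266, 3291 and 5190.1 (4.74 ± 0.28; limma, adjusted p = 8.19e-07). Vcan, the gene of versican, was at 1.08, 8.05 and 0 in the controls and 116, 50.3, 52.7, 52.4 and 36.4 in the TAZ-CCl4 libraries (4.44 ± 0.67; limma, adjusted p = 0.000228). The 2 groups did not overlap for Nid1 or Vcan.

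Markers of the cell types known to express these genes also differed between the groups, and in bulk tissue fewer cells of a type and less RNA per cell cannot be told apart. All 7 cholangiocyte markers rose, with a sum of 1878 to 2564 normalised counts in the controls and 33905 to 120325 in the TAZ-CCl4 libraries, where Spp1 made up most of it. Of 12 stellate cell and myofibroblast markers 7 rose and 5, Des, Lrat, Reln, Hgf and Dcn, were not called. Their sum was 2574 to 4190.5 in the controls and 10325 to 19549 in the TAZ-CCl4 libraries, where Col1a1, Col1a2 and Col3a1 made up most of it. These collagen genes and Dcn were also counted among the matrix substrates above. Of 10 macrophage markers 5 rose, 1 fell and 4 were not called (sum 1716 to 3050 and 5820 to 13448), and the resident macrophage gene Clec4f was lower in the TAZ-CCl4 replicates 2 and 4, at 33.8 and 29.0, than in the other 3, at 194 to 887. All 4 tested neutrophil markers rose (sum of the 10 markers 57.03 to 67.83 and 400.1 to 756), and the other 6 were below the filter. Of these, Ly6g, Mpo, Ngp and Camp were listed at 0 in all controls, Ltf was at 3.55 in control replicate 1 and 0 in the other 2, and Elane was at 2.40 to 5.67 in the controls and 0 to 3.10 in the TAZ-CCl4 libraries. Of 8 lymphocyte and plasma cell markers 4 rose and 4 were not called (sum 86.3 to 172 and 320 to 1367), and of 8 endothelial markers 2 rose, 3 fell and 3 were not called (sum 1974 to 3793 and 2424 to 3349). Of 9 hepatocyte markers 8 fell, Alb was not called, and the sum was 2072860 to 2549200 in the controls and 728672 to 1046670 in the TAZ-CCl4 libraries. Of all genes tested, 32.4% rose and 29.8% fell at the deposited scaling. The markers Retnlg, S100a8, Cftr, Cd3e, Cd8a and Nkg7 rose but had control means under 10. They passed the filter only through the TAZ-CCl4 group, and Timd4, which fell, only through the controls. At equal totals the counts of markers called higher and lower were 7 and 0 for cholangiocytes, 10 and 0 for stellate cells, 6 and 1 for macrophages, 4 and 0 for neutrophils, 6 and 0 for lymphocytes, 5 and 0 for endothelial cells and 0 and 3 for hepatocytes, where 76.3% of all genes tested were called higher and 6.37% lower. The part of these shifts in the values of the protease and inhibitor genes was not tested.

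Hepatocyte genes were abundant in every library, as the sums above show, and Wwtr1, the gene of TAZ, stood at 280 to 463 normalised counts in the controls and 4339 to 9021 in the TAZ-CCl4 libraries (limma, log2 fold change 3.94, adjusted p = 1.00e-06). The gene-level value does not separate the introduced from the endogenous transcript. Of the 51 tested genes, 16 share coordinates with another coding gene, among them Timp1 with Syn1, Timp2 with Cep295nl and Timp3 with Syn3, and the labels do not say whether counting used the strand. The sequencing depth, estimated from the smallest values, was 12.3 to 33.9 M reads, highest in TAZ-CCl4 replicate 4, and low genes such as Timp4, Mmp3 and Mmp24 rest on few reads.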

How the data were processed

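Liver RNA of 3 control and 5 TAZ-CCl4 libraries was analysed from 1 deposited table. Its values are a normalised count signal for each gene, made by the authors with kallisto and DESeq2, per the table's name. DESeq2 and the build mm10 are also named in the submitters' processing notes; versions and filters are not given. Whole reads could not be recovered: 54.8% to 66.8% of the low values lay within 0.03 reads of a whole number.

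The 14171 of 35204 genes whose mean over all 8 libraries reached 10 were tested on log2(value + 1), with a pseudocount of 1, by limma 3.58.1 in R 4.3.3 with a trended prior variance and Benjamini-Hochberg adjustment over all of them at 0.05, without covariates. The method was run on simulated data with few changed genes and no difference in library totals, so this run cannot address the scaling. A count model was not used, because the values are not counts. The rule for named genes took the 5 inhibitors, up to 4 called members a family by fold change with a higher group mean of at least 50, the members that fell, and 2 genes a pathway list. Other genes are given by fold change, call or range, and members below the filter were named where a library passed 10 or after their values were seen (Adamts8, Adam2, the chromosome 9 cluster). The members and the lists were chosen with earlier results of these data known. Positions are from GENCODE M21 (mm10), which holds 85 of the 86 genes, and lengths are of the longest coding transcript; promoters are from RefSeq (GRCm38.p6). Replicate numbers were given in accession order and share only a number: deviations of same-numbered libraries correlated at -0.0665, -0.0640 and -0.0883. Alternatives were 4 scalings, 2 pseudocounts, 2 filters, 2 prior variances, each library left out and the replicate number as a block.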

Additional observations from a re-analysis of the deposited data

Results flagged for a closer look

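In each of the 51 tested genes the 5 TAZ-CCl4 libraries were checked, on the log2(normalised count + 1) scale, for a library whose gap to its nearest neighbour took up an unusual share of the group's range (above Dixon's 95% critical value for 5 libraries), a check that chance alone passes in about 1 of 20 groups. It marked 2 genes on that scale. Adam23 was lowest in TAZ-CCl4 replicate 4, at 48.7 normalised counts (gap over range 0.844), with the other 4 libraries between 95.7 and 108. Mmp28 was lowest in TAZ-CCl4 replicate 5, at 7.94 normalised counts (0.886), with the other 4 between 19.3 and 21.5. On the untransformed values, a scale added after the data were seen, the same check marked 8 genes: these 2, and 6 in which 1 library was highest. These were Mmp3 (94.3 normalised counts in replicate 2), Timp4 (67.1 in replicate 2), Adamts13 (179.8 in replicate 2), Mmp12 (807.5 in replicate 4), Timp1 (335.7 in replicate 4) and Adamtsl5 (124.2 in replicate 5).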

How the results depend on the processing

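The count of members called higher, 36, ranged from 27 with a mean of at least 50, where fewer genes were tested, to 45 at equal totals, and from 34 to 38 with 1 library left out. The count called lower, 3, was 0 at equal totals, 1 when Mup and mitochondrial genes were left out of those totals, 5 after quantile normalisation, and 2 to 4 with 1 library left out. At equal totals the direction turned for Adam1a (0.83), Adam23 (0.27), Adam4 (0.76), Adam9 (1.08), Adamts13 (0.30), Mmp15 (0.70) and Reck (1.14), and, with Mup and mitochondrial genes left out of the totals, for Adam1a (0.42), Adam4 (0.38), Adam9 (0.66), Mmp15 (0.28) and Reck (0.73). Of these, only Adam23 and Adamts13 were called at the deposited scaling. Adam1a, Adam9 and Mmp15 were called higher at equal totals, and Adam9 also with Mup and mitochondrial genes left out of the totals. In the other alternatives the direction turned for Adam9, Adam12, Adamtsl4, Adamtsl5, Mmp9 and Reck, which were called neither there nor at the deposited scaling. Quantile normalisation called Adam1a (-1.33) and Adam4 (-1.58) lower, which were not called at the deposited scaling. It ended the calls of Adam22, Adam33, Mmp28 and Mmp8, with log2 fold changes of 1.24, 1.03, 0.54 and 1.74. The call of Mmp3, listed at 0 in all controls, ended too. A pseudocount of 10 also ended the call of Mmp3 (limma, adjusted p = 0.102). With the replicate number as a block, 34 were called higher and 2 lower; the numbers do not pair the libraries, and the calls of Adam17, Adam33 and Adamts13 were lost (limma, adjusted p = 0.0563, 0.0533 and 0.0724). With 3 controls and values without counts, changes of members near the filter are poorly resolved.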
